A study of Rattus norvegicus with 6 samples.

Results

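Oxidative phosphorylation is carried out by 5 protein complexes of the mitochondrial inner membrane whose subunits come from both the nuclear and the mitochondrial genome. Its genes were taken from the gene table by name: nuclear genes named Nduf..., Sdha to Sdhd, Uqcr..., Cyc1, Cox with a digit, or Atp5..., and the mitochondrially encoded Mt-nd, Mt-co, Mt-cyb and Mt-atp genes. This gave 121 of 32623 genes, 108 nuclear and 13 mitochondrial, with 133 of 40808 transcripts. Ndufa4 and Ndufa4l2 were counted with complex IV, where the Ndufa4 protein is placed, and the Ndufaf genes and Cox10, Cox11 and Cox14 to Cox20 were counted as assembly factors.

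The tissue was spinal cord of female Wistar rats, 8 weeks old at housing, and all 6 libraries came from a spinal cord injury model. In 3 libraries the animals had also received electrical stimulation (ES), and in the other 3 they had not (SCI). The stimulation protocol, the level of the injury and the time after it were not given in the sources used here, and no uninjured group is analysed here. Whether every library stands for its own rat is not stated either, so p-values measure the spread between libraries. Poly(A) RNA was sequenced and the values are FPKM, fragments per kilobase of transcript scaled to the number of mapped fragments.

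Complexes I to IV form the electron transport chain. Complex I (NADH dehydrogenase) and complex II (succinate dehydrogenase) pass electrons to coenzyme Q, complex III passes them on to cytochrome c, and complex IV (cytochrome c oxidase) passes them to oxygen. Complexes I, III and IV pump protons, and complex V (ATP synthase) uses the return flow to make ATP, on which neurons depend heavily for ion pumping. The mitochondrial genome encodes core subunits of every complex but II. Its genes are transcribed as long polycistronic RNAs from both strands, cut at the tRNAs and then polyadenylated, whereas each nuclear gene has a promoter of its own.

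The promoters of the nuclear members with the largest called rises (Cox5a, Atp5mg) and falls (Ndufa2, Ndufa11) among those with an entry in the RefSeq promoter table are shown because these 4 genes are among the nuclear differences described below. Each runs 5′ to 3′ on the gene's strand from 250 bases before to 50 after the annotated start, in build GRCr8. Capitals mark 3 motifs, searched on both strands, of factors known to act on respiratory genes: GCGCA, any base and GCGC for NRF1, CCGGAAG for ETS factors such as GABP, and GCCATNTT for YY1.
Cox5a, chr8:66818034-66818333, plus strand: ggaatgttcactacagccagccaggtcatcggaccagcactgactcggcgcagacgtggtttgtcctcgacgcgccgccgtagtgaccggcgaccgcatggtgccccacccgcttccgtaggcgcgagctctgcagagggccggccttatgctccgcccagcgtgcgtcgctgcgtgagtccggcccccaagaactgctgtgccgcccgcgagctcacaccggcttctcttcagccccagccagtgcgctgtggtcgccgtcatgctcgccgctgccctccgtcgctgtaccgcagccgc
Atp5mg, chr8:54130358-54130657, minus strand: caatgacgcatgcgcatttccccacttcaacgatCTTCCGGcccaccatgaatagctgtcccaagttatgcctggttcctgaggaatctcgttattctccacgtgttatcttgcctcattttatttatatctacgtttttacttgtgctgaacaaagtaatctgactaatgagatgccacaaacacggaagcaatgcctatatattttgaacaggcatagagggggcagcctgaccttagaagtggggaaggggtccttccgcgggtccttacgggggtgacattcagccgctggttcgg
Ndufa2, chr18:28631835-28632134, minus strand: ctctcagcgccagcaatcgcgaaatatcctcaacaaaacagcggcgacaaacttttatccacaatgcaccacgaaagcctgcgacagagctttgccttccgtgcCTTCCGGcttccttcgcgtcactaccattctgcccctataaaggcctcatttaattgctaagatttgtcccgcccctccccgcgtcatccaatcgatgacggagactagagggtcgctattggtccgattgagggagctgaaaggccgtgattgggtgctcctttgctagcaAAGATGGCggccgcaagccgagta
Ndufa11, chr9:1637364-1637663, plus strand: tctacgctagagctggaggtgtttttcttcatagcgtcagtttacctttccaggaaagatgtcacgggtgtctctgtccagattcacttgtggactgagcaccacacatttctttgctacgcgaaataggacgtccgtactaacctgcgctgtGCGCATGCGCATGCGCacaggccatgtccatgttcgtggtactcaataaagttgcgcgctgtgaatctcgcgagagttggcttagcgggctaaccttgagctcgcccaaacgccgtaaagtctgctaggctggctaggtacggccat

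The Atp5mg window held 1 ETS match, the Ndufa2 window 1 ETS and 1 YY1 match, the Ndufa11 window 2 overlapping NRF1 matches and the Cox5a window none of the 3. Ndufa11 lies on the minus strand in the series' own annotation, whose build differs. Of 104 nuclear member symbols, 90 had a promoter in the table. NRF1 letters were found in 18 of these 90 (20%), against 4.25% of all 33469 promoters of that length, ETS letters in 25 (27.8%) against 8.75%, and YY1 letters in 33 (36.7%) against 6.96%. At least 1 of the 3 was present in 59 (65.6%) against 17.7% of all promoters. In the 21851 promoters of protein-coding genes the shares were 5.67%, 10.7% and 7.67%, and 21.1% for at least 1. Promoters were matched by symbol, and those of Ndufs6 and Cox7a2l2 lie on other chromosomes than these members do in the series' annotation. The members that rose and those that fell held them at 11 of 18 and 11 of 15 promoters, and members that did not pass the test at 35 of 53. The match counts are a description of these windows.

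Of the 13 mitochondrial genes, 10 were higher in ES at an adjusted p under 0.05 and none was lower in limma's test on log2(FPKM + 1) with Benjamini-Hochberg adjustment over all 15750 genes tested. At an unadjusted p under 0.05 the count lower was also 0. After quantile normalization of the libraries 2 of the 13, Mt-nd1 and Mt-co1, were called lower and 2 higher. With equal totals 7 were called higher and 0 lower. Mt-nd1, Mt-co1 and Mt-co3 then lost their calls (adjusted p = 0.225, 0.161 and 0.083 in limma's test). Over all genes tested 17.4% were called higher and 27.6% lower, 45% in either direction. The median difference of the 13 was 0.30 on the log2 scale, beside -0.06 over all genes. In bulk tissue such differences cannot be told apart from a change in the cells present, since fewer cells of a type and less RNA per cell give the same value.

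Mt-atp6, the subunit a of ATP synthase through which protons pass, had 15158.5, 15551 and 15063 FPKM in the ES libraries and 2691, 3043 and 2708 in the SCI libraries, each in replicate order. The groups lay far apart, 5.42-fold by their means, with a log2 difference of 2.44 ± 0.05 (SE, adjusted p = 7.39e-07 in limma's test). The gene lies at 7919 to 8599 of the mitochondrial chromosome in the files' coordinates. It was the only 1 of the 121 members that the authors' deposited table marks as significant, with a fold of 5.42 there. Other members had small q-values there but folds under the mark's log2 limit of 1. Among them were Mt-nd6, Mt-co2 and Cox5a, at log2 folds of 0.72, 0.67 and 0.48. Their q-values from the authors' unnamed test were 5.54e-22, 7.42e-18 and 1.39e-09.

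Mt-atp8, the small subunit encoded just before it, stood at 8589, 8760.3 and 8462 FPKM in ES against 6267, 6905 and 6324 in SCI, a log2 difference of 0.41 ± 0.04 (adjusted p = 0.000383 in limma's test), which was 0.09 and not called after quantile normalization (adjusted p = 0.113). The 2 genes are known to share a single bicistronic mRNA, and their annotated spans overlap by 43 bases, 21.1% of Mt-atp8 and 6.31% of Mt-atp6. The ratio of Mt-atp6 to Mt-atp8 FPKM was 1.76, 1.78 and 1.78 in ES and 0.429, 0.441 and 0.428 in SCI. The order of the 2 genes' levels was thus opposite in the 2 groups in every library. Mt-co3, which follows Mt-atp6 and overlaps it by 1 base, differed by 0.15 in log2. How reads in the overlaps were divided between these genes was not given in the sources used here, and its part in the Mt-atp6 value was not tested.

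**Figure D1:**
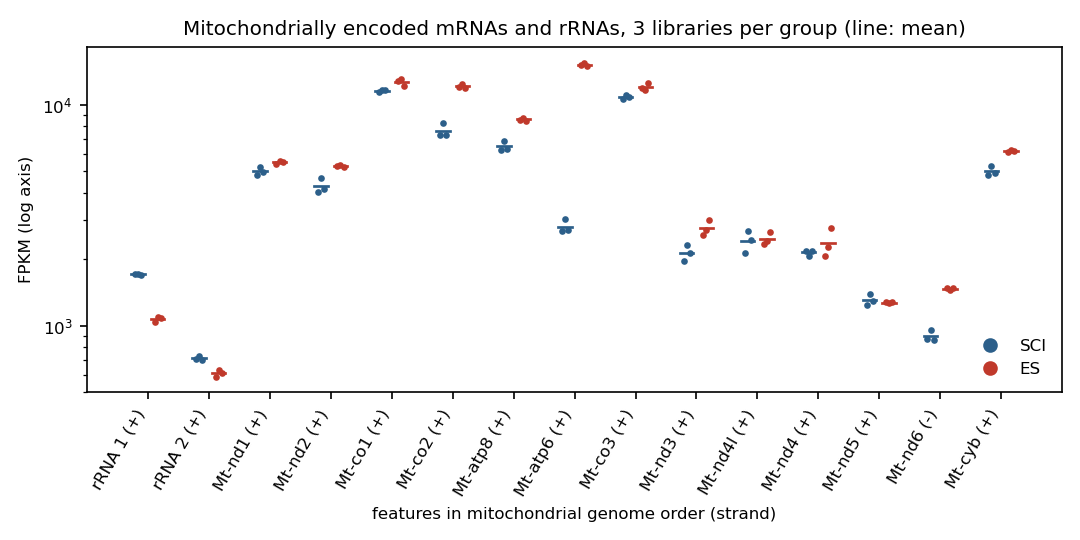
FPKM (log axis) of the 13 mitochondrially encoded mRNAs and both rRNAs in genome order with their strand, 1 point per library and a line at each group's mean, SCI in blue and ES in red. Mt-atp6 shows the widest gap, Mt-co2 and Mt-nd6 the next, and both rRNAs lie lower in ES.

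Mt-nd6, a complex I subunit and the only protein gene on the other strand, stood at 1482, 1451 and 1488 FPKM in ES and 867, 955 and 862 in SCI, a log2 difference of 0.72 ± 0.04 (adjusted p = 3.7e-05 in limma's test). Mt-nd5, whose 3′ end it overlaps by 23 bases, stood at 1275, 1262 and 1276 in ES and 1241, 1399 and 1297 in SCI, so that the groups overlapped. The Mt-nd6 to Mt-nd5 ratio was 1.16, 1.15 and 1.17 in ES and 0.699, 0.683 and 0.665 in SCI. Mt-nd6 and Mt-atp6 were the 2 mitochondrial genes called higher under each of the 5 scalings of the libraries tried.

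Among the complex IV subunits, Mt-co2, which takes electrons from cytochrome c, stood at 12123, 12479 and 11996 FPKM in ES and 7299, 8313 and 7319 in SCI, a log2 difference of 0.68 ± 0.05 (adjusted p = 0.000135 in limma's test). Mt-co1, the catalytic subunit, stood at 12903, 13158 and 12187 in ES and 11456, 11639 and 11702 in SCI. Mt-co3, a core subunit without redox centres, stood at 12005, 11704 and 12532 against 10633, 11109 and 10819. All 3 rose as deposited, but Mt-co2 moved most, and its ratio to Mt-co1 was 0.94 to 0.984 in ES and 0.625 to 0.714 in SCI. After quantile normalization Mt-co1 and Mt-co3 had log2 differences of -0.22 and -0.21, and Mt-co2 stood at 0.11 and was no longer called (adjusted p = 0.102 in limma's test). Mt-co1 lost its call without ES replicate 1 (adjusted p = 0.055 in limma's test).

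Mt-cyb, cytochrome b of complex III, stood at 6146, 6249.6 and 6183 FPKM in ES and 4797, 5312 and 4946 in SCI, a log2 difference of 0.30 that became -0.03 after quantile normalization. Among the other membrane-arm subunits of complex I, Mt-nd1, Mt-nd2 and Mt-nd3 rose by 0.13, 0.30 and 0.37 in log2, with Mt-nd1 at -0.22 after quantile normalization and Mt-nd2 and Mt-nd3 at 0.08 and 0.29 and no longer called (adjusted p = 0.166 and 0.0672 in limma's test). Mt-nd1 also lost its call without ES replicate 2 or 3 or SCI replicate 3, at adjusted p = 0.0665, 0.0633 and 0.0637 in limma's test. Mt-nd4, Mt-nd4l and Mt-nd5 did not pass the test. Their 95% intervals ran from -0.11 to 0.37, from -0.17 to 0.26 and from -0.15 to 0.06. In Mt-nd4 the ES libraries ranged from 2068 to 2771 FPKM, around 2073 to 2191 in SCI. SCI replicate 2 had the highest sum of mitochondrial mRNAs of its group, 65680.0 FPKM, below the 87384 to 88910.5 of ES.

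The mitochondrial rRNAs, which these poly(A) libraries also hold, moved the other way from the mRNAs. The first in genome order (68 to 1025) stood at 1035, 1091 and 1083 FPKM in ES and 1719, 1721 and 1706 in SCI. The second (1094 to 2664) stood at 588, 629 and 610.4 in ES and 705, 733 and 699 in SCI. Both were called lower in the transcript fit. Of the 22 tRNAs, 7 were higher and 2 lower, where 12.8% of all transcripts tested were higher, 19.5% lower and 32.3% either. Since poly(A) selection was used, these values count polyadenylated or carried-over molecules, not the whole pool.

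As a share of all gene FPKM the nuclear members took 1.77%, 1.78% and 1.77% in ES and 1.84%, 1.80% and 1.81% in SCI. Their summed FPKM was higher in ES, at 10144, 10166 and 10099.9 against 10017, 9767 and 9842, so share and sum went opposite ways. Summed, the mitochondrial members stood at 8.61, 8.75 and 8.75 times the nuclear members in ES and at 6.03, 6.72 and 6.29 times in SCI. Without Mt-atp6 that ratio was 7.12 to 7.26 in ES and 5.76 to 6.41 in SCI. The groups do not overlap on any of these measures. The difference of mean ratios was 2.36 with Mt-atp6 and 1.14 without it. The total FPKM of all genes was itself 1.05 times as high in ES.

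**Figure D2:**
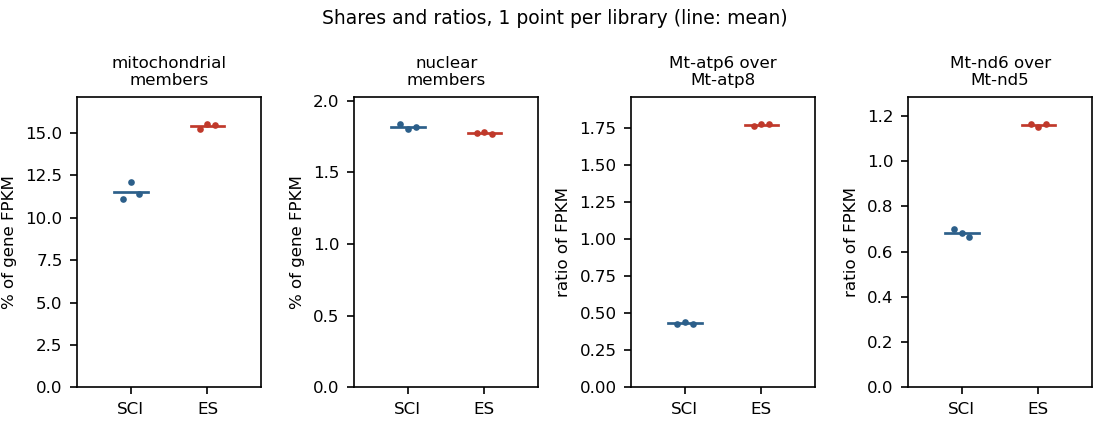
Share of all gene FPKM taken by the mitochondrial and by the nuclear members, and the ratios of Mt-atp6 to Mt-atp8 and of Mt-nd6 to Mt-nd5 FPKM, 1 point per library with a line at the mean. ES and SCI libraries do not overlap in any panel, and the nuclear share is the only 1 of the 4 that is lower in ES.

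Of the 108 nuclear members, 102 were high enough to test, at a mean of 0.5 FPKM or more. Of these, 21 rose (20.6%), 16 fell (15.7%) and 65 were not called, beside 17.4% and 27.6% of all genes, with a median log2 difference of 0.01. The split depended on the scaling of the libraries: it was 11 higher and 26 lower with equal totals, 19 and 19 with equal totals outside the mitochondrial genome, 21 and 21 after quantile normalization and 43 and 7 after median centring. The 3 ES libraries all lay above the 3 SCI libraries in 27 members and all below in 23, where 21.9% and 34.6% of all genes did so. All 37 called differences were under 0.5 in log2, as were 4803 of the 7088 called over all genes. Called the same way under all 5 scalings were 10 that rose, among them Cox5a, Ndufb10, Sdhd, Uqcrh, Uqcr10, Atp5mg, Atp5pb, Atp5if1 and Atp5mc3, and 7 that fell. The other 20 of the 37 lost their call under at least 1 of the other scalings.

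The 6 members too low to test were a single-exon copy of Ndufa10l1, Ndufs6 (annotated as a processed pseudogene), Cox6c-ps1, Cox7b2, Cox8b and Cox8c. Cox8b, the heart and muscle form in rodents, Cox8c and Cox7b2, both known mainly from testis, reached at most 0.203 FPKM in any library.

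**Figure D3:**
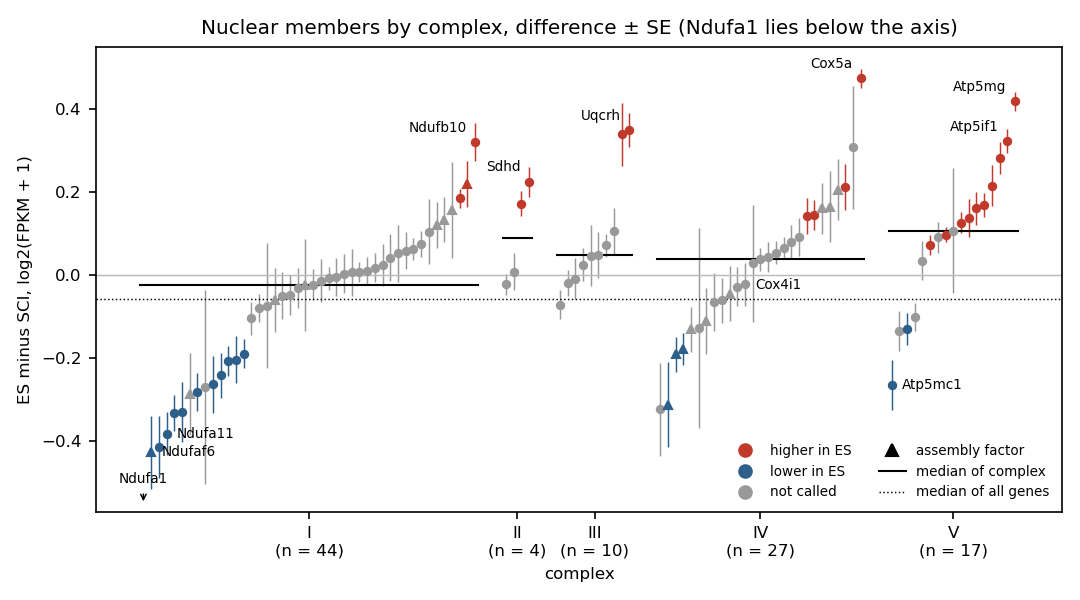
Difference between ES and SCI in log2(FPKM + 1), ± SE, of each tested nuclear member by complex, with 3 libraries per group. Red and blue points passed the test, triangles are assembly factors, the black bars are the medians of the complexes (-0.02, 0.09, 0.05, 0.04 and 0.11 for I to V) and the dotted line is the median of all genes (-0.06).

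In complex I, 3 of 44 tested nuclear members rose (6.82%) and 11 fell (25%), beside 17.4% and 27.6% of all genes, so the share that fell was near the background. The median was -0.02. Among the 36 subunits the numbers were 2 and 10, and among 8 assembly factors 1 and 1. Under other scalings the split was 2 and 14, 3 and 13, 5 and 14 and, after median centring, 12 and 7, in which the direction of the majority turned. Of the 7 nuclear core subunits 1 rose and 3 fell.

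Ndufa2, an accessory subunit of the peripheral arm, stood at 78.8, 75.1 and 68.9 FPKM in ES and 110, 95.2 and 93.1 in SCI, a log2 difference of -0.41 ± 0.08 (adjusted p = 0.00486 in limma's test). Ndufa11, a membrane-arm subunit at the contact with complex III in the supercomplex, stood at 138, 141 and 131 in ES and 182, 166 and 187 in SCI, a difference of -0.38 ± 0.05 (adjusted p = 0.00133). Both groups were separate for both genes, and both called falls held under all 5 scalings. So did those of Ndufa13, also known as GRIM-19, at 164, 159 and 167 against 217, 196 and 205, and of Ndufaf6, an assembly factor, at 4.16, 3.53 and 4.29 against 5.17, 5.82 and 6.15. Ndufa6, Ndufb6 and Ndufs8, singled out after their values were seen because they complete the 7, fell by 0.33, 0.28 and 0.21 on the log2 scale.

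Among the nuclear-encoded core subunits of complex I, Ndufs3, Ndufs7 and Ndufs8, which belong to the module that carries electrons to quinone, were lower by -0.19, -0.26 and -0.21 in log2. They stood at 40.9 to 43.4, 38.4 to 42.2 and 64.3 to 70.1 FPKM in ES and at 46.4 to 49.0, 43.5 to 51.1 and 76.3 to 78.7 in SCI. The groups did not overlap in any of the 3. These 3 were described after their values were seen, and 1 of the 7 nuclear core subunits rose. Ndufs3 and Ndufs7 were not called after median centring (-0.10 and -0.17, adjusted p = 0.0682 and 0.0851 in limma's test). Ndufs7 lost its call without ES replicate 2 or 3 or SCI replicate 1 or 3 (adjusted p = 0.0602, 0.0643, 0.0588 and 0.0633 in limma's test). The NADH-oxidising subunits Ndufv1 and Ndufs1 did not pass the test, with intervals of -0.05 to 0.17 and -0.07 to 0.09.

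Against the falls, Ndufb10, an accessory subunit of the membrane arm, rose from 118, 109 and 106 FPKM in SCI to 135, 137 and 144 in ES, a difference of 0.32 ± 0.05 (adjusted p = 0.00188 in limma's test). Ndufaf7, an assembly factor, rose by 0.22 and lost its call without ES replicate 1 (adjusted p = 0.0592). Ndufa1, singled out after its values were seen, was unstable within both groups, at 100.1, 170.1 and 0 FPKM in ES and 125, 172 and 41.9 in SCI, and no direction can be read from it. A second gene with the same description, LOC108348144, did not make up for the 0: their sum was 115, 180 and 18.0 in ES and 139, 181 and 63.3 in SCI.

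**Figure D4:**
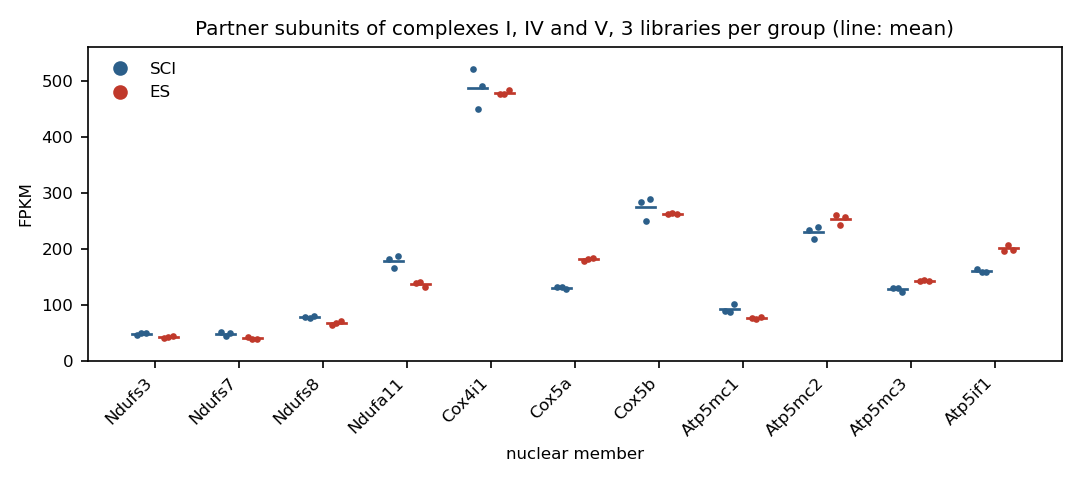
FPKM of 11 nuclear subunits and regulators of complexes I, IV and V, 1 point per library with a line at each group's mean, SCI in blue and ES in red. Ndufs3, Ndufs7, Ndufs8 and Ndufa11 are lower in ES, Cox5a is higher while Cox4i1 and Cox5b overlap, and Atp5mc1 is lower while Atp5mc2 and Atp5mc3 are higher.

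All 4 genes of complex II, which is wholly nuclear and also serves the citric acid cycle, were tested. The membrane anchors Sdhc and Sdhd rose, and the catalytic subunits Sdha and Sdhb did not pass the test. Sdhc was not called after quantile normalization (0.07, adjusted p = 0.124), and with equal totals Sdha was called lower (-0.10, adjusted p = 0.0211 in limma's test). Sdhd stood at 86.0, 92.0 and 88.1 FPKM in ES and 74.3, 74.5 and 78.4 in SCI, a log2 difference of 0.23 ± 0.04 (adjusted p = 0.00281 in limma's test). Sdhc stood at 127, 128 and 132 against 111, 118 and 115, a difference of 0.17 ± 0.03 (adjusted p = 0.00399). Sdha, the flavoprotein, and Sdhb, the iron-sulfur subunit, had intervals of -0.09 to 0.04 and -0.10 to 0.12. Whether anchors and catalytic subunits differ from each other was not tested.

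In complex III 2 of 10 rose (20%, near the 17.4% of all genes) and none fell, where the count lower was 0 also at an unadjusted p under 0.05 in limma's test. The split was 2 and 2 with equal totals and 2 and 1 after quantile normalization. Uqcrh, the hinge protein beside cytochrome c1, stood at 225, 224 and 247 FPKM in ES and 184, 181 and 181 in SCI, a log2 difference of 0.35 ± 0.04 (adjusted p = 0.000755 in limma's test). Uqcr10, a small subunit, stood at 102, 97.3 and 101 against 88.7, 71.4 and 77.3, a difference of 0.34 ± 0.08 (adjusted p = 0.0108). Their gaps separate the groups in every library. The catalytic Cyc1 (cytochrome c1) and Uqcrfs1 (the Rieske protein) and the core protein Uqcrc1 did not pass the test, at differences of 0.05, 0.07 and -0.02, and Uqcrfs1 passed without ES replicate 1 (adjusted p = 0.0422). Uqcrb appears under 2 gene identifiers, and neither differed beyond the test.

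In complex IV 4 of 27 members rose (14.8%) and 3 fell (11.1%), both under the 17.4% and 27.6% of all genes, and the 3 that fell were assembly factors. The majority depended on the scaling, with 1 higher and 5 lower with equal totals, 4 and 2 after quantile normalization and 13 and 0 after median centring. Cox5a, a matrix-facing subunit, had the largest difference among the called nuclear members. It stood at 178, 181 and 184 FPKM in ES and 131, 131 and 128 in SCI, with a log2 difference of 0.47 ± 0.02 (adjusted p = 1.98e-05 in limma's test). Cox4i1, the subunit that assembles with Cox5a first and the most abundant nuclear member, stood at 476, 476 and 483 against 520.1, 449.7 and 491. Its groups overlapped, with an interval of -0.15 to 0.10. The Cox5a to Cox4i1 ratio was 0.373, 0.380 and 0.381 in ES and 0.252, 0.291 and 0.261 in SCI.

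A second gene described as a Cox5a-like protein, LOC100361008, singled out after its values were seen, was low and went the other way, at 4.26, 3.66 and 4.20 FPKM in ES and 5.60, 6.05 and 6.28 in SCI. The further rises in complex IV were small: Cox7c by 0.14, Cox7a2l2 by 0.14 and a single-exon copy of Cox6b1 by 0.21. Each lost its call without some single library, Cox7c at adjusted p = 0.0801 to 0.101 without ES replicate 1 or 2 or SCI replicate 1 or 3, Cox7a2l2 at 0.0564 and 0.0504 without ES replicate 2 or 3, and the copy at 0.0573 and 0.0524 without ES or SCI replicate 1, all in limma's test. The multi-exon Cox6b1 stood at 181 to 198 against 182 to 187 and did not pass.

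The assembly factors that fell were Cox15, which makes heme A, at 9.42 to 9.71 FPKM in ES and 10.7 to 11.4 in SCI, Cox19, a protein linked to copper delivery, at 15.9 to 17.1 against 18.7 to 19.0, and Cox18, which inserts Mt-co2 into the membrane, at 4.92 to 5.19 against 5.43 to 7.48. Cox18 failed the test on leaving out any of ES replicates 1, 2 and 3 and SCI replicates 1 and 2 (adjusted p = 0.0849 to 0.115 in limma's test). Over both complexes 1 of 17 assembly factors rose (5.88%) and 4 fell (23.5%), with a median of -0.04. Both shares were under the 17.4% and 27.6% of all genes.

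Tissue-specific and hypoxia-type subunit forms stayed a small part of their pairs. Cox4i2, the form known from lung and hypoxic cells, was 0.461% ± 0.047 of the Cox4i1 and Cox4i2 sum in ES and 0.332% ± 0.099 in SCI (SD, n = 3), and the groups overlapped. Cox6a2, the heart and muscle form, was 1.75% ± 0.313 of its pair in ES and 2.35% ± 0.207 in SCI, with SCI libraries at 8.61 to 9.19 FPKM and ES libraries at 5.89 to 8.36. The testis form Cox6b2 was 4.68% and 5.06% of its pair, and Ndufa4l2, the hypoxia-induced relative of Ndufa4, 2.51% and 2.49%. None of these 4 passed the gene test, but Cox4i2 did without SCI replicate 3 (adjusted p = 0.0231) and Cox6a2 without ES replicate 3 (adjusted p = 0.00499 in limma's test). Cox7a1, the muscle form, reached at most 0.904 FPKM, while Cox7a2l, which links complexes III and IV, stood at 105 to 109 against 101 to 105.

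Complex V had 10 of 17 members higher and 2 lower, with a median of 0.11, beside all-gene rates of 17.4% and 27.6%. The split was 4 and 4 with equal totals, 9 and 3 without the mitochondrial genome in the totals, 9 and 4 after quantile normalization and 11 and 0 after median centring. Atp5mg, a membrane subunit near the dimer interface (subunit g), stood at 290, 282 and 288 FPKM in ES and 212, 218 and 212 in SCI, a log2 difference of 0.42 ± 0.02 (adjusted p = 2.7e-05 in limma's test). Atp5pb, the stator subunit b, stood at 39.2, 40.3 and 40.8 against 32.0, 32.1 and 34.4, a difference of 0.28 ± 0.04 (adjusted p = 0.00149). Atp5me, the small membrane subunit e, rose by 0.22. LOC100911417, described as subunit b-like and singled out after its values were seen, rose as well. Atp5pb and LOC100911417 summed to 80.5, 81.6 and 82.7 in ES and 58.3, 62.0 and 62.1 in SCI. The Atp5pb gene value was 0.569 of the sum of its transcripts, so its level and this sum are not comparable with other genes. Its main transcript stood at 65.8, 67.0 and 68.5 FPKM in ES and 53.4, 52.6 and 57.2 in SCI.

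Atp5if1, the inhibitor that blocks reverse ATP hydrolysis, stood at 196, 207 and 198 FPKM in ES and 163, 159 and 158 in SCI, a log2 difference of 0.32 ± 0.03 (adjusted p = 0.000211 in limma's test). The catalytic F1 subunits differed less, Atp5f1b (beta) by 0.10 ± 0.02 (adjusted p = 0.00599) and Atp5f1a (alpha) by 0.07 ± 0.02 (adjusted p = 0.0427). The ratio of Atp5if1 to Atp5f1b was 0.504, 0.526 and 0.4999 in ES and 0.443, 0.433 and 0.432 in SCI, with no overlap. Atp5f1a failed the test on leaving out any of ES replicates 1, 2 and 3 and SCI replicates 2 and 3 (adjusted p = 0.0672 to 0.132), and its log2 difference was -0.001 with equal totals, where Atp5f1b was at 0.02 and not called (adjusted p = 0.333).

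The 3 genes for subunit c, which encode the same mature ring protein behind different targeting sequences, moved apart. Atp5mc1, known as the regulated copy, stood at 75.6, 74.6 and 78.1 FPKM in ES and 88.3, 86.1 and 101 in SCI, a log2 difference of -0.26 ± 0.06 (adjusted p = 0.0128 in limma's test). Atp5mc3 rose by 0.17 and Atp5mc2 by 0.14, both described after their values were seen. Atp5mc2 lost its call without ES replicate 1 or 3 or SCI replicate 1 or 2 (adjusted p = 0.075 to 0.129 in limma's test). It was also not called with equal totals (0.06, adjusted p = 0.276), nor was Atp5mc1 after median centring (-0.17, adjusted p = 0.0605 in limma's test). Atp5mc1 made up 15.8%, 16.2% and 16.4% of the 3 genes' summed FPKM in ES and 19.6%, 19.9% and 21.9% in SCI. The sum itself overlapped between groups, at 460.4 to 478 in ES and 432 to 462 in SCI. Atp5po, the stator subunit OSCP, stood at 147, 151 and 147 against 165, 154 and 169 and failed the test on leaving out any of the libraries but SCI replicate 2 (adjusted p = 0.0532 to 0.0926).

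By the median of the members' log2 differences, complex I stood lowest (-0.02) and complex V highest (0.11) of the 5 on the deposited scale. The median level of the subunits in a library gave another order. The median log2(FPKM + 1) of the tested subunits was lower in ES by the group means in complex I (difference -0.08) and higher in complex III (0.09), V (0.10), II (0.14) and IV (0.22). Complex I was lowest by both measures, and the highest was complex V by one and complex IV by the other. Both are descriptions.

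**Figure D5:**
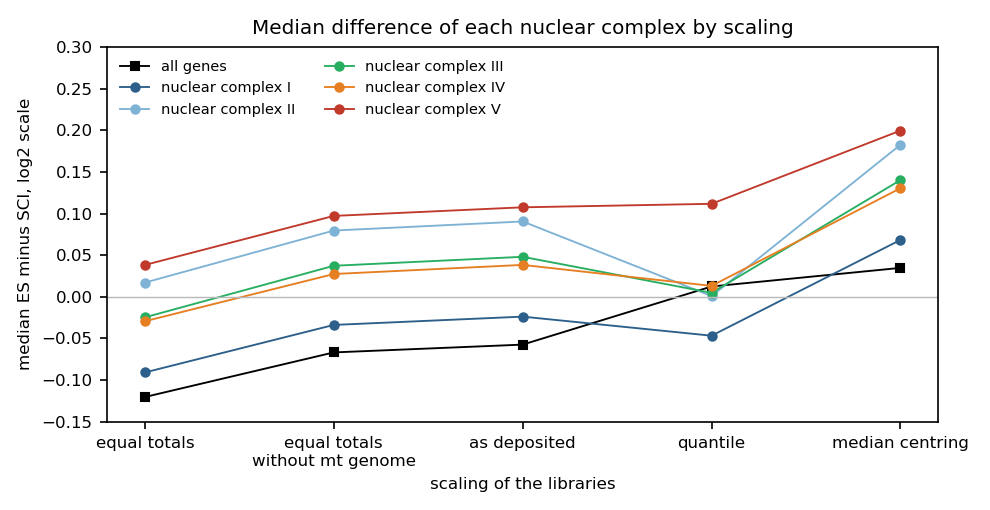
Median log2 difference between ES and SCI of the tested nuclear members of each complex and of all genes under 5 scalings of the libraries. Medians range from -0.09 to 0.07 in complex I and from 0.04 to 0.20 in complex V, with V the highest and I the lowest of the 5 complexes under each scaling, while quantile normalization brings II and III to near 0.

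At the transcript level 19 of 111 tested transcripts of nuclear members rose (17.1%) and 14 fell (12.6%). Of all transcripts tested 12.8% were higher and 19.5% lower. For each of the 110 members with 1 transcript the gene and transcript values were equal within 1%. In 8 nuclear genes with several transcripts the gene value was below the transcripts' sum, at 0.162 of it in Atp5f1c, 0.368 in Atp5f1d and 0.569 in Atp5pb. Gene levels of these members are therefore not comparable with those of the rest. In Atp5f1d, the F1 delta subunit, the 2468-base transcript rose from 6.16 to 6.99 FPKM in SCI to 7.99 to 9.79 in ES (adjusted p = 0.0179 in limma's test over transcripts), while the 799-base main transcript overlapped at 106 to 122 and 104 to 118.

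Since Ndufs6 itself was near 0, 2 genes carrying that description were looked at after the values were seen. LOC679739 and LOC100912599 summed to 88.5, 64.6 and 77.8 FPKM in ES and 56.0, 49.9 and 50.9 in SCI. Their groups are separate as a sum and for LOC679739 alone, where 21.9% of all genes tested lay all above in ES. Neither gene passed the test (adjusted p = 0.163 for LOC679739 and 0.738 for LOC100912599 in limma's test). LOC679739 was listed at 0 in SCI replicate 1, where LOC100912599 was at its highest. How reads were divided between such near copies, and between Cox6b1, Uqcrb, Ndufv3 or Ndufa10l1 and their single-exon copies, was not given in the sources used here.

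Among genes that serve the pathway without belonging to it, 6 of 12 tested regulators of respiratory gene expression fell, 1 rose and 5 were not called, beside 27.6% of all genes lower and 17.4% higher. The list had a median of -0.21 that stayed below 0 under all 5 scalings. Ppargc1a, the PGC-1alpha coactivator of mitochondrial biogenesis, stood at 0.872, 0.847 and 1.01 FPKM in ES and 1.64, 2.06 and 1.67 in SCI, a log2 difference of -0.55 ± 0.10 (adjusted p = 0.00414 in limma's test). Its relatives Ppargc1b and Pprc1 and the factor Yy1 fell by 0.63, 0.28 and 0.32 on the log2 scale. Hif1a, the hypoxia factor, rose by 0.18. Nrf1 and Gabpa, which bind the NRF1 and ETS motifs, were at -0.08 and -0.07 and did not pass.

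Of 26 genes of mitochondrial transcription and RNA handling 3 rose (11.5%) and 1 fell (3.85%), beside 17.4% and 27.6% of all genes (median -0.01). Tfam, which packages and transcribes the mitochondrial genome, rose by 0.21, Polg, its polymerase, by 0.18 and Rexo2, an RNA exonuclease, by 0.27, while the termination factor Mterf1 fell by 0.35. Of 28 assembly factors outside the name rule 3 rose (10.7%) and 4 fell (14.3%), with a median of 0.02. Foxred1, a complex I assembly factor, stood at 5.73, 5.55 and 5.87 FPKM in ES and 10.5, 10.7 and 8.96 in SCI, a log2 difference of -0.72 ± 0.07 (adjusted p = 0.000422 in limma's test), and the complex IV factor Pet100 rose by 0.35.

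Of 25 genes of cytochrome c, coenzyme Q synthesis and carriers 3 rose (12%) and 6 fell (24%), with a median of 0.04. Cycs, cytochrome c itself, stood at 84.0, 84.4 and 88.9 FPKM in ES and 63.9, 66.3 and 61.6 in SCI, 1.34-fold by the means (log2 difference 0.42 ± 0.04, adjusted p = 0.000245 in limma's test). Ucp2, an inner membrane carrier abundant in immune cells, stood at 298, 290.4 and 286 against 179, 176 and 180, 1.64-fold by the means. The adenine nucleotide carrier Slc25a5 rose by 0.19 and the phosphate carrier Slc25a3 fell by 0.17. Of 74 mitochondrial ribosomal proteins 12 rose (16.2%) and 8 fell (10.8%, median 0.02), led by Mrps25 at 0.45 and with Mrps10 at 0.75. Of 22 import channel genes 2 rose, among them Tomm22 by 0.38, and 2 fell, and of 18 genes of inner membrane organisation and dynamics 2 rose and 2 fell, among them Mfn2, a fusion protein, by 0.39. The medians of these 6 lists were between -0.02 and 0.04 and turned sign under at least 1 other scaling. Each list's shares that rose and fell were under the 17.4% and 27.6% of all genes.

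Cell type markers moved between the same libraries. In summed FPKM, the 6 oligodendrocyte markers reached 12626 to 12644 in ES and 7923 to 8001 in SCI (6 of 6 rose), the 8 neuronal markers 466 to 483 against 356 to 377 (7 rose), the 6 microglia and macrophage markers 2150.1 to 2213 against 1823 to 1872 (5 rose) and the 4 erythrocyte markers 2972 to 3187 against 518 to 546 (4 rose). The 6 astrocyte markers were at 2175 to 2330.1 against 3384 to 3424 (5 fell), the 4 Schwann cell markers at 689 to 694 against 1341 to 1364 (4 fell), the 5 fibroblast and meninges markers at 610.0 to 619 against 921 to 983 (5 fell) and the 4 smooth muscle markers at 86.4 to 89.6 against 134 to 147 (4 fell). Neuronal and glial markers were thus present in every library, as the spinal cord label says. The part of these differences in the respiratory genes was not tested. Markers of skeletal muscle and brown fat, 2 non-cord tissues rich in mitochondria, were also read, and their part in the differences was not tested. The 8 skeletal muscle markers found were low and summed to 8.12 to 12.3 FPKM in ES and 6.05 to 6.55 in SCI. These sums did not overlap, and 1 of the 4 tested, Myl1, was called higher. Of the 2 brown fat genes Ucp1 reached at most 0.0339 FPKM. Cidea stood at 16.5 to 21.3 FPKM in ES and 31.9 to 38.5 in SCI and was called lower.

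Libraries correlated at 0.983 to 0.986 within a group and 0.962 to 0.965 across groups on the log2(FPKM + 1) scale. Depth, estimated by reading the smallest step between low transcript values as 1 read pair, was 13900000 to 16100000 read pairs in ES and 16300000 to 18600000 in SCI. At that depth counting alone gives the tested nuclear members a median coefficient of variation of 3.34%, where 4.52% was observed. Their 95% intervals reached, at the median, 0.11 in log2 to either side, so differences smaller than that were often not detectable with 3 libraries per group.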

How the data were processed

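Poly(A) RNA of 6 spinal cord libraries (3 ES, 3 SCI) was measured. The authors deposited FPKM per gene and per transcript, and reads were handled with HISAT and StringTie, per the submitters' processing notes. Versions, genome build, strand setting and the authors' test were not given in the sources used here, although the kit is stranded per the labels' protocols. The authors' deposited tables also hold a fold (from the values, the ratio of mean ES to mean SCI FPKM), its log2, and columns of p-values and q-values, per the file headers. The value 0.0001 stands for 0 in the deposited FPKM and was read as 0.

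The test was limma 3.58.1 (R 4.3.3, mean-variance trend, two-sided) on FPKM values after log2(FPKM + 1), for genes or transcripts averaging 0.5 FPKM or more over the 6 libraries, with Benjamini-Hochberg adjustment over all tested and calls at an adjusted p under 0.05. The script was tested on simulated data. FPKM are not counts, and a log2 difference with 1 added understates changes of low genes. For shares and ratios per library an exact permutation test of 3 against 3 cannot go below p = 0.1, so values are given without p.

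The scalings were the deposited values, equal totals, equal totals of genes outside the mitochondrial genome, quantile normalization and median centring. Members named by rule were all mitochondrial genes, per complex up to 4 called genes with the largest difference in each direction at 1 FPKM or more, defining subunits, paired isoforms, members called against their complex's majority, and 2 to 4 genes per pathway list by p. A member that the rule names is not reported here. Others are marked as chosen after their values were seen. Members and lists were chosen with earlier results of these data known. Promoter sequences are from RefSeq, GRCr8.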

Additional observations from a re-analysis of the deposited data

How the results depend on the processing

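Without any 1 library, 14 of the 21 nuclear rises, 12 of the 16 falls and 8 of the 10 mitochondrial rises kept their call in every such fit. The counts ranged from 16 to 21, 12 to 16 and 9 to 10, and the median log2 differences from -0.0257 to -0.00476 in complex I, 0.0702 to 0.104 in II, 0.0261 to 0.0672 in III and 0.0906 to 0.127 in V. Equal totals gave 11 nuclear rises and 26 falls and medians of -0.059 (nuclear), 0.225 (mitochondrial), -0.0909, 0.017, -0.0247, -0.0294 and 0.0382 (I to V). Median centring gave 43 and 7 and medians of 0.106, 0.391, 0.0683, 0.183, 0.140, 0.130 and 0.200. Quantile normalization gave 2 mitochondrial rises and 2 falls, and medians of 0.0014 (nuclear), -0.0064 (mitochondrial), -0.0467, 0.00086, 0.0048 and 0.0131 (I to IV). Under it Mt-co1, Mt-co3, Mt-cyb and Mt-nd1 turned to -0.22, -0.21, -0.03 and -0.22, and with equal totals Atp5f1a turned to -0.00104; the cause was not tested. The mitochondrial share was 3.89 percentage points higher in ES, 1.43 without Mt-atp6 and Mt-atp8 and, in an alternative chosen after seeing the data, 1.74 without Mt-atp6; the ratio to the nuclear members was 2.36 higher, 0.946 and 1.14. Both pseudocounts, both filters, the fit without trend, equal totals outside the mitochondrial genome and subunits alone kept each of these counts within 1.5 times and each median within the replicate spread. Of the single members named by rule, 8 lost their call without the trend, 6 without the filter and 4 with the block.

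Replicate numbers are shared by the labels, but deviations of same-numbered libraries correlated at -0.029 to -0.026, so they are not paired by the data or the labels. With the number as a block the nuclear counts were 21 higher and 13 lower and the mitochondrial count 10 higher, with unchanged medians. Depth and 3 libraries per group limit the precision.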
